A study of Mus musculus with 15 samples.

Results

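The comparison described here sets 3 arrays of mammospheres treated with ICG against 3 arrays of mammospheres treated with DMSO, the solvent control, both from the first of the study's 2 sets of cultures. These are 6 of the 15 arrays of the series, chosen by treatment and array code in the sample titles. Mammospheres are the floating spheres that mammary cells form when they cannot attach to a surface, a culture that favours stem and progenitor cells. The cells were taken from primary tumours of the mammary gland in FVB/N mice, and every group carried the genotype written WAPCre-DNbcatn;HGF. WAP is a milk protein gene whose promoter drives the Cre recombinase in secretory mammary cells, HGF is the ligand of the MET receptor, and the labels do not spell out DNbcatn. The spheres grew for 7 days and were then exposed to the inhibitor or to DMSO for 24 h, and 250 ng of total RNA was labelled per array. The other 9 arrays are 3 of PHA in the first set, and 3 of DMSO and 3 of PHA with ICG in the second. The labels give neither full names nor doses. The names are commonly used for a compound that blocks transcription through β-catenin (ICG) and one that blocks the MET kinase (PHA), which is background and not stated in the labels.

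β-catenin joins adherens junctions to the cytoskeleton and, when Wnt signalling stops its destruction, enters the nucleus, where it binds TCF/LEF factors and recruits co-activators such as CBP to genes that include Axin2, Lgr5 and Myc. The integrated stress response is a separate circuit in which kinases that sense amino acid shortage, misfolded protein or low haem phosphorylate a translation initiation factor. Overall protein synthesis then slows while the transcription factor ATF4 is made, and ATF4 with its partners switches on genes for amino acid supply.

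All values are log2 expression levels as deposited, so a difference of 1 is a doubling. Differences are ICG minus DMSO ± SE with n = 3 arrays in each group, and adjusted p-values are those of limma with Benjamini-Hochberg adjustment over 18193 genes. A gene is said to have risen or fallen where that value was under 0.05. Whether the replicates were separate cultures or animals is not in the labels. The p-values therefore measure the spread between these arrays alone, which may be technical, and the number of arrays limits the precision. Spheres are mixtures, and in such bulk samples fewer cells of a type and less RNA per cell cannot be told apart.

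The first principal component of the 6 arrays, with 71.2% of the variance, placed the DMSO arrays between −27.2 and −16.9 and the ICG arrays between 18.9 and 25.9. DMSO replicate 1 stood apart from the other DMSO arrays on the second component (10.9%), at −16.5 against 6.4 and 6.7. Mitotic, collagen, fibroblast and macrophage genes were on average lower on that array than on the other DMSO arrays. The gap between the 3′ and 5′ control probe sets of Actb, a measure of RNA integrity, was 0.34 to 0.58 in DMSO and 0.55 to 0.68 in ICG. It moved with treatment, and its part in the results was not tested. Mammary epithelial keratins were well detected: Krt8 stood at 9.74 on all 3 DMSO arrays and Krt14 at 10.91, 11.22 and 11.09. For comparison, 38 olfactory receptor genes, which mammary cells are not known to use, had a 95th percentile of 5.32, taken here as the level of dim probe sets.

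With ICG, limma called 4218 of 18193 genes (23.2%), of which 1774 rose (9.75%) and 2444 fell (13.4%). A further restriction to changes of at least 2-fold left 69 genes that rose (0.379%) and 303 that fell (1.67%), so the large changes were mostly decreases. The 3 arrays of each group did not overlap for 7391 genes (40.6%). The balance of the calls depended on scaling: as deposited 42.1% of the called genes were higher, quantile normalization gave 2269 that rose and 2198 that fell, and centring each array on its median gave 2813 and 1879. None of the 4218 called genes changed sign under either scaling. With 1 of the 6 arrays left out 2853 to 3934 genes were called.

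**Figure D1:**
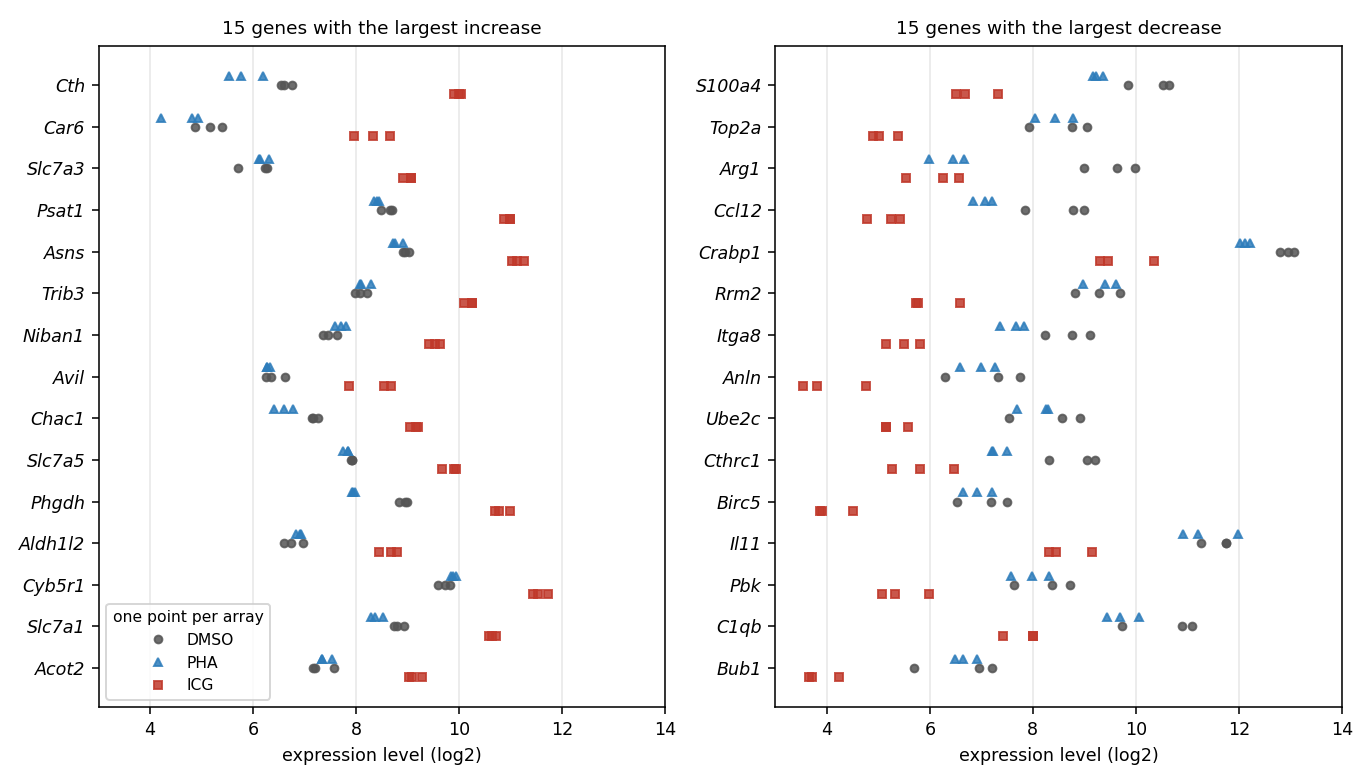
The horizontal axis gives the log2 expression level of the 15 genes with the largest increase (left) and the 15 with the largest decrease (right) on each array of the first set, with grey circles for DMSO, blue triangles for PHA and red squares for ICG. The ICG arrays lie beyond the DMSO arrays for all 30 genes, as the rule that picked them required, and for Arg1 the PHA arrays lie close to the ICG arrays.

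Genes of amino acid supply led the increases. Cth encodes cystathionine gamma-lyase, which releases cysteine at the end of the transsulfuration pathway. It read 6.75, 6.55 and 6.60 in DMSO and between 9.89 and 10.03 on the 3 ICG arrays, a difference of 3.34 ± 0.08 (10.1-fold, adjusted p = 1.93e-06). The ICG arrays lay far above the DMSO arrays and close to each other. Asns, asparagine synthetase, read 9.02, 8.95 and 8.90 in DMSO and 11.25, 11.13 and 11.03 in ICG, a rise of 2.18 ± 0.08 (adjusted p = 1.63e-05). The serine pathway rose at each of its 3 steps: Phgdh, the first enzyme, by 1.90 ± 0.09, Psat1, the second, by 2.33 ± 0.08, and Psph, the third, by 1.55 ± 0.07. All 4 probe sets of Phgdh rose, by 1.16 to 1.90, and both of Psat1, by 2.33 and 2.45.

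Of 16 measured genes of amino acid synthesis and folate-linked one-carbon transfer, 11 rose and none fell, and 8 of the 11 rose at least 2-fold. Their median difference was 1.07, beside 0.03 over all genes tested. Among mitochondrial folate enzymes, Aldh1l2 rose by 1.88 ± 0.12, Mthfd2 by 1.59 ± 0.08 and Shmt2 by 1.15 ± 0.09, while Mthfd1l, at 0.13, did not pass. Glul, glutamine synthetase, at −0.11 ± 0.08, did not pass. Averaged over the 16 genes the level was 8.16, 8.24 and 8.19 in DMSO, 9.39, 9.38 and 9.31 in ICG, and 8.04, 7.97 and 8.03 in the PHA arrays of the same set. The ICG arrays were therefore the high ones, with no overlap.

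Of 18 amino acid transporters 8 rose (44.4%) and 2 fell (11.1%), beside 9.75% and 13.4% of all genes, with a median of 0.25. The cationic amino acid transporters Slc7a3 and Slc7a1 rose by 2.94 ± 0.15 and 1.82 ± 0.08. Slc7a5, the light chain of the leucine exchanger LAT1, read 7.91, 7.90 and 7.91 in DMSO and 9.90, 9.93 and 9.67 in ICG. Its heavy chain Slc3a2 rose by 1.00 ± 0.09, and the neutral amino acid transporters Slc1a4 and Slc1a5 rose by 1.28 and 0.79. Slc7a8, the light chain of the related exchanger LAT2, fell by 0.54. Slc7a11, the cystine importer, was at 0.31 ± 0.13 and did not pass (adjusted p = 0.123), but it passed without DMSO replicate 1, at 0.43 (adjusted p = 0.0302).

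Aminoacyl-tRNA synthetases charge transfer RNA in the cytosol or in mitochondria. Of 19 cytosolic ones 12 rose and 3 fell, with a median of 0.61. Aars, for alanine, read 10.28, 10.27 and 10.19 in DMSO and 11.35, 11.29 and 11.40 in ICG, Wars, for tryptophan, rose by 1.09 ± 0.08 and Tars, for threonine, by 0.98 ± 0.07. Among the 3 that fell was Farsa, a subunit of the phenylalanine enzyme, by 0.44. Only 1 of the 4 probe sets of Farsa fell and another stood at 0.11. With all of them averaged Farsa was at −0.12 and did not pass. With any 1 array left out 12 still rose and 1 to 3 fell. Of 16 mitochondrial synthetases 3 rose (18.8%, beside 9.75% of all genes) and none fell, with a median of 0.07. The difference between the lists was not tested. Tars2, for threonine, was the highest of them at 0.56 ± 0.09.

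Among 23 regulators of the integrated stress response 18 rose and 1 fell, with a median of 0.66. Atf4 itself read 11.95, 11.87 and 11.79 in DMSO and 12.49, 12.57 and 12.65 in ICG, a rise of 0.70 ± 0.08 (adjusted p = 0.000664), and the 3 ICG arrays all lay above DMSO. Of its partner and target genes some rose more and some less. Cebpg, a partner, and Ddit4, an inhibitor of mTORC1, rose by 0.46 and 0.36 (the latter call was lost without DMSO replicate 3, at 0.33), and the partner gene Cebpb, at 0.04, did not pass. Higher than Atf4 were Ddit3, which encodes CHOP, at 0.94 ± 0.09, Atf5 at 1.40 ± 0.09, and Trib3, a pseudokinase that dampens ATF4, at 2.10 ± 0.08. Chac1, which degrades glutathione, read 7.25, 7.15 and 7.16 in DMSO and 9.04, 9.20 and 9.16 in ICG. Niban1 rose by 2.05 ± 0.09, Sesn2, which restrains mTORC1 when leucine is short, by 1.10 ± 0.06, and Ppp1r15a, the phosphatase subunit that ends the response, by 0.87. Of the 4 kinases that start the response, Eif2ak1, the haem sensor, rose by 0.66, Eif2ak3 (PERK), the sensor of misfolded protein, fell by 0.57 ± 0.10, and Eif2ak2 and Eif2ak4, at −0.10 and −0.16, did not pass. With all probe sets of a gene averaged, Eif2ak1 and Eif2ak3 were at 0.07 and −0.17 and neither passed. A second probe set of Ddit3 stood at −0.06.

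Genes for chaperones and folding enzymes of the endoplasmic reticulum fell more often than they rose, and what lay behind this was not tested. Of 20, 3 rose and 12 fell, with a median of −0.24. Hspa5 (BiP), the main chaperone of that compartment, read 13.67, 13.58 and 13.57 in DMSO and 13.57, 13.54 and 13.58 in ICG, and the groups overlapped. The disulfide isomerase gene Pdia4 fell by 1.17 ± 0.10 (adjusted p = 0.000269), although its second probe set stood at 0.05, and the secreted stress protein genes Creld2 and Manf fell, at −0.66 and −0.53. After median centring of the arrays 8 of the 20 fell, and with any 1 of the 6 arrays left out 7 or 8 did. The highest of the 3 that rose was Ero1a, an oxidase, by 0.48.

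The promoters of these genes were examined for the composite element that ATF4 binds with a C/EBP partner. The core TGATGNAA was searched on both strands of the 250 bases before each start in RefSeq's GRCm38.p6 annotation. It occurred in 410 of 14452 tested genes with a promoter sequence (2.84%). It occurred in 5 of 17 called regulators of the stress response, 2 of 9 called amino acid synthesis genes, 3 of 10 called cytosolic synthetases and 0 of 7 called transporters. Counting all measured members, called or not, the figures were 6 of 21, 2 of 14, 3 of 12 and 2 of 14 in the same order. A match is only a run of letters, and a window without it says nothing about binding of the factor elsewhere. Asns (chr6:7693210-7693459, minus strand) and Chac1 (chr2:119350992-119351241, plus strand) are shown because both rose strongly and carry 1 match each, starting 23 and 193 bases before the start, with the match in capitals and Chac1's on the opposite strand.
Asns: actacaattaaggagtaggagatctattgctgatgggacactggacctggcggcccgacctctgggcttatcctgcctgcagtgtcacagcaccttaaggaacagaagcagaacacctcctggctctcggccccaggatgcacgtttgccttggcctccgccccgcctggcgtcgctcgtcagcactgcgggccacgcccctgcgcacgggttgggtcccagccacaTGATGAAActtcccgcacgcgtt
Chac1: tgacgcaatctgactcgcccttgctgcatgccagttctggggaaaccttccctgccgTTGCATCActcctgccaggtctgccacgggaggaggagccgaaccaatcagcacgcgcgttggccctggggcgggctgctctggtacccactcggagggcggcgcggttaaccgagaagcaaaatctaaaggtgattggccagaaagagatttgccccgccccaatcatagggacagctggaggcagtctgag

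The largest group of decreases lay in the cell cycle. Top2a, which untangles replicated chromosomes, read 7.93, 8.75 and 9.05 in DMSO and 5.39, 5.02 and 4.89 in ICG, a difference of −3.48 ± 0.26 (adjusted p = 0.000195). No ICG array came near a DMSO array, but 2 of the 3 ICG values lie under 5.32, the level of dim probe sets, so no fold is given. Rrm2, the regulated subunit of ribonucleotide reductase, fell from 8.82, 9.29 and 9.69 to 6.59, 5.76 and 5.73, a change of −3.24 ± 0.27. All 3 probe sets of Rrm2 fell, at −1.89 to −3.24, whereas 1 of the 3 of Top2a did, and another stood at −0.02.

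Entry into S phase was represented by 21 regulators, of which 10 fell and none rose (median −0.23). Ccne2, the cyclin that drives the step, fell by 2.25 ± 0.28 and the repressive E2F factors E2f7 and E2f8 fell to differences of −1.97 ± 0.21 and −1.70 ± 0.16. Cdk4, the partner kinase of D cyclins, fell by 0.71 ± 0.06. The cyclin gene Ccnd1, often listed as a β-catenin target, read 11.56, 11.41 and 11.62 in DMSO and 11.46, 11.62 and 11.24 in ICG. These overlapped, and the difference of −0.09 ± 0.11 did not pass. Of 7 inhibitors of cyclin-dependent kinases 3 rose, Cdkn2b by 0.87, Cdkn2a by 0.64 and Cdkn1a by 0.33, and 2 fell, Cdkn2c by 0.65 among them.

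Replication genes fell at every stage listed. Of 20 genes that license and fire origins 14 fell and none rose, with a median of −0.83. Mcm6, a subunit of the replicative helicase, read 8.17, 8.24 and 8.35 in DMSO and 6.12, 5.68 and 5.95 in ICG, a change of −2.34 ± 0.12 (adjusted p = 3.71e-05). The loading factor Cdc6 fell by 2.00 ± 0.15, whereas Cdt1, with which it works, was at −0.09 ± 0.07. Mcm5 fell by 2.67 ± 0.18, but its 3 probe sets were not alike: 2 fell and 1 rose by 0.34. Of 22 genes of the fork 17 fell and none rose (median −0.66), among them the primase gene Prim1 by 1.38 ± 0.13. Of 12 genes of nucleotide supply 6 fell, with Tk1, thymidine kinase, at −2.04 ± 0.31 beside Rrm2, while none rose. The list means kept the groups apart: origin genes averaged 8.00, 8.09 and 8.22 in DMSO and 7.26, 7.19 and 7.20 in ICG.

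Of 45 genes of G2/M and the spindle 37 fell and none rose, 23 of them at least 2-fold, with a median of −1.02. The share called lower over all genes was 13.4%. Birc5, survivin, a subunit of the chromosomal passenger complex, read 6.52, 7.18 and 7.50 in DMSO and 4.51, 3.86 and 3.91 in ICG, a change of −2.98 ± 0.26. Cdk1, the mitotic kinase, fell by 2.68 ± 0.31, its cyclin partners Ccnb2 and Ccna2 were at −2.03 ± 0.32 and −1.89 ± 0.23, and Aurkb, the kinase of Birc5's complex, fell by 1.82 ± 0.22. Ube2c, the ubiquitin-conjugating enzyme of the anaphase-promoting complex, fell by 3.04 ± 0.31 and Anln, an organiser of the cytokinetic ring, was at −3.09 ± 0.41. A second probe set of Anln stood at −0.05. All 3 ICG values of Birc5 and several of the others lay under 5.32, where probe sets are dim, and a difference can be understated there.

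Not all genes of the mitotic programme were called. Foxm1, a transcription factor of G2/M genes, was at 0.10 ± 0.09 with all 4 probe sets short of the threshold. Mki67, the proliferation marker, counted in the chromosome list below, read 7.91, 9.10 and 9.29 in DMSO and 7.94, 7.48 and 7.77 in ICG. DMSO replicate 1 lay among the ICG arrays there, and the difference of −1.04 ± 0.32 missed the threshold (adjusted p = 0.0525). Without that array it was −1.47 (adjusted p = 0.000633). Mki67 also passed in limma with an intensity trend (adjusted p = 0.0175) and with all 9 arrays of the set (adjusted p = 0.0387). DMSO replicate 1 was the lowest DMSO array over the whole G2/M list, whose mean was 6.50, 6.95 and 7.17 in DMSO and 5.84, 5.64 and 5.66 in ICG. Without DMSO replicate 1, 40 of the 45 genes fell, with a median of −1.13. The PHA arrays averaged 6.98, 6.83 and 6.62, above every ICG array.

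Chromosome and repair genes fell as well. Of 20 genes of chromosome structure and chromatin duplication 14 fell and none rose (median −0.73), with Uhrf1, which brings DNA methylation maintenance to replicated DNA, at −2.53 ± 0.21 with both probe sets lower. Of 19 DNA repair genes 13 fell and 1 rose (median −0.38), led by the exonuclease gene Exo1 at −1.78 ± 0.15 and Brca1, of homologous recombination, at −1.21 ± 0.09. Another probe set of Exo1 stood at 0.05. Only 8 of the repair genes fell without DMSO replicate 2 or without ICG replicate 2.

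Promoter letters were examined in the same way for the cell cycle genes. The cell cycle homology region (CHR) TTTGAA, bound by the complex that represses and activates G2/M genes, occurred before 14.1% of the 14452 genes. It occurred before 9 of 30 called G2/M genes (30%) and 9 of 14 called chromosome genes (64.3%). Counting all measured members, called or not, the figures were 13 of 36 (36.1%) and 10 of 17 (58.8%). The E2F site TTTGGCGC occurred before 0.775% of all genes, 2 of 10 called origin genes, 1 of 15 called fork genes and 0 of 6 called genes of nucleotide supply. A second form, TTTCCCGC, occurred before 1.55% of all genes and before 2, 0 and 0 of the same lists. Top2a (chr11:99024190-99024439, minus strand) has 2 CHR matches, starting 179 and 23 bases before the start, Ube2c (chr2:164769679-164769928, plus strand) has 1 at 29 bases, and Mcm6 (chr1:128359706-128359955, minus strand) has 2 E2F matches at 110 and 47 bases. They are shown as the genes above whose fall was large, with matches on either strand in capitals.
Top2a: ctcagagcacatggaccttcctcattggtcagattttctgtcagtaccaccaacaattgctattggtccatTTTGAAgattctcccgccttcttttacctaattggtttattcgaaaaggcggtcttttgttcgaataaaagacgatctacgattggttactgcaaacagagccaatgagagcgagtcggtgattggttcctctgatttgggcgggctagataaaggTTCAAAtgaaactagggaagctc
Ube2c: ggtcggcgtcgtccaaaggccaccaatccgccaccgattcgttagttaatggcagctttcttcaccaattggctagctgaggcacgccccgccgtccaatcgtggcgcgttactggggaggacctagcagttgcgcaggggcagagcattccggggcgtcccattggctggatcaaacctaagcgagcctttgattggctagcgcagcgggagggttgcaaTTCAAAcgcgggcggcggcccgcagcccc
Mcm6: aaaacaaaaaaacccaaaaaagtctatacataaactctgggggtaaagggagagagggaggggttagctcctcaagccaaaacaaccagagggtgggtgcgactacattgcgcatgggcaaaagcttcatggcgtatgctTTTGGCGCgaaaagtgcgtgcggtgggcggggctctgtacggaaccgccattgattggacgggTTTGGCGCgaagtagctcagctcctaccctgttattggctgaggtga

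**Figure D2:**
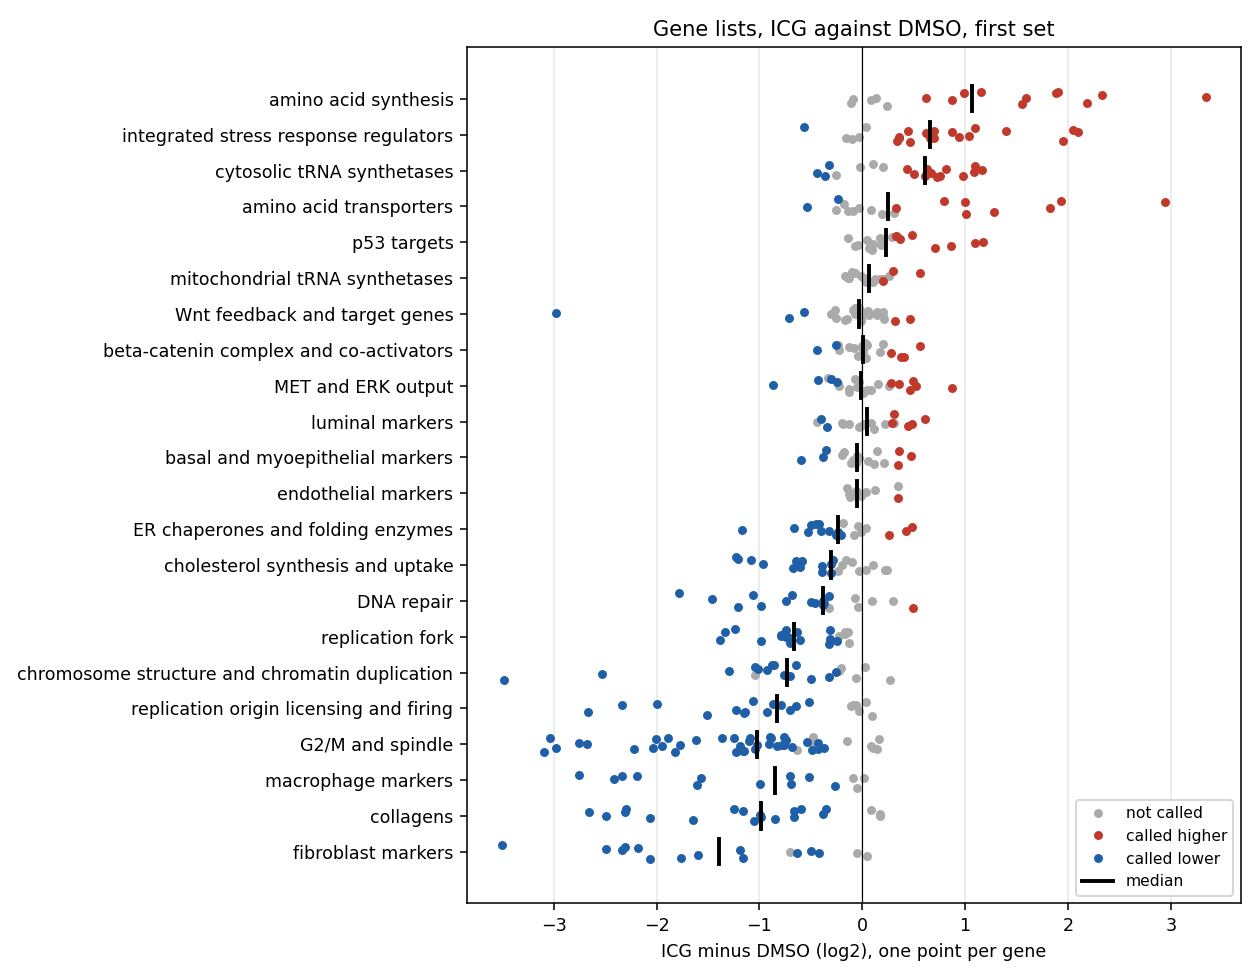
Each point is a gene, placed by its ICG minus DMSO difference (log2, horizontal axis) within its list (vertical axis). Red marks genes called higher, blue genes called lower, grey genes not called, and the black bar is the list's median, which runs from 1.07 for amino acid synthesis to −1.39 for fibroblast markers. Wnt feedback and target genes, the β-catenin complex and epithelial markers centre near 0.

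Wnt target genes, which the inhibitor is meant to act on, showed no common shift. Of 26 measured feedback and target genes 2 rose (7.69%) and 3 fell (11.5%), with a median of −0.03. These shares were close to the 9.75% and 13.4% of all genes. Axin2, the most widely used read-out of β-catenin activity, read 6.77, 6.83 and 6.96 in DMSO and 6.66, 6.67 and 6.72 in ICG. All 3 ICG arrays were lower, but by so little that the difference of −0.17 ± 0.07 did not pass (adjusted p = 0.129), and its second probe set stood at 0.18. Birc5, also a member of the mitotic list, Nkd2, an inhibitor of Dishevelled, and Apcdd1, an inhibitor at the receptor, were the 3 that fell. Nkd2 fell by 0.57 ± 0.07 with all 4 probe sets lower. The call of Apcdd1, at −0.71 ± 0.20, was lost without DMSO replicate 2 (−0.62), DMSO replicate 3 (−0.57), ICG replicate 1 (−0.71) or ICG replicate 3 (−0.56).

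Myc, a growth regulator counted among the targets, rose: it read 9.89, 9.73 and 9.72 in DMSO and 10.05, 10.20 and 10.47 in ICG, a difference of 0.46 ± 0.11 (adjusted p = 0.0202). All 3 ICG arrays lay above DMSO, but the call was lost without DMSO replicate 2 (0.44), DMSO replicate 3 (0.43) or ICG replicate 2 (0.48). The other that rose was Dkk1, at levels of 3.42 to 3.97, which are those of dim probe sets, and its call was lost without DMSO replicate 2 (0.24), DMSO replicate 3 (0.35), ICG replicate 1 (0.29) or ICG replicate 2 (0.28). With 1 array left out, 0 to 3 of the 26 rose and 2 to 4 fell. Of the 26 genes 9 had mean levels at or below 5.32, among them Lgr5 and Sp5, where a fall is hard to measure. TCF/LEF cores (CTTTGAT) occurred before 3 of 17 targets with a promoter sequence, 0 of the 3 of these that were called, and 3.15% of all genes, and this core overlaps the CHR searched above in the letters TTTGA.

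Of 23 components of the β-catenin complex 4 rose (17.4%) and 2 fell (8.7%), beside 9.75% and 13.4% of all genes (median 0.01). With 1 array left out 3 or 4 rose and 0 to 2 fell. Ctnnb1, which encodes β-catenin, read 13.54, 13.53 and 13.56 in DMSO and 13.85, 13.82 and 13.78 in ICG, a rise of 0.28 ± 0.06 (adjusted p = 0.0151). Its 3 ICG arrays lay above DMSO, but only 1 of its 3 probe sets rose and another stood at −0.19. The call was lost without DMSO replicate 2 (0.27, adjusted p = 0.0502) or ICG replicate 1 (0.26, adjusted p = 0.0519). Crebbp, the gene for CBP, was at 0.05 ± 0.08, while Ep300, the related co-activator p300, rose by 0.38 ± 0.07. Gsk3b, a kinase of the destruction complex, rose by 0.56 ± 0.08.

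Among 40 Wnt ligands, receptors and antagonists 3 rose and 7 fell. The share that rose, 7.50%, was below the 9.75% of all genes and the share that fell, 17.5%, above the 13.4%. The ones that fell most are often made by stromal cells: the antagonist genes Frzb and Dkk3 fell by 1.44 ± 0.27 and 1.02 ± 0.16, and Wnt5a, a ligand of the non-canonical pathway, read 9.61, 9.71 and 9.76 in DMSO against 8.69, 8.62 and 8.02 in ICG. Fzd4, a receptor, rose by 0.45 ± 0.08. Fibroblast markers fell beside these genes, as described next, and their part in them was not tested. Of 24 genes of MET signalling and its ERK output 6 rose (25%) and 4 fell (16.7%), beside 9.75% and 13.4% of all genes (median −0.01). With 1 array left out 2 to 5 rose and 1 to 3 fell. Met itself, at −0.13 ± 0.07, did not pass.

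Fibroblast and matrix genes formed the second large group of decreases. Of 16 fibroblast markers 13 fell and none rose, 10 of them at least 2-fold, with a median of −1.39. S100a4, a calcium-binding protein of fibroblasts and motile cells, had the largest decrease of all genes: 9.84, 10.65 and 10.53 in DMSO against 7.33, 6.50 and 6.69 in ICG, a difference of −3.50 ± 0.26 (11.3-fold lower, adjusted p = 0.000192). Pdgfrb, a receptor of fibroblasts and pericytes, fell by 2.18 ± 0.22 and the transcription factor gene Twist2 by 2.06 ± 0.21. The markers did not all follow: Dcn, decorin, stayed between 14.24 and 14.34 on all 6 arrays, and Pdpn between 12.86 and 13.05. The mean over the 16 markers was 9.96, 10.51 and 10.48 in DMSO and 9.17, 8.86 and 8.64 in ICG, without overlap. Without DMSO replicate 1, 14 fell with a median of −1.63.

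Of 20 collagen chains 17 fell and none rose (median −0.99). Col6a1, Col6a2 and Col6a3, the chains of the microfibrillar collagen VI, fell, at −2.66, −2.06 and −2.30, and so did the fibrillar chains Col3a1 and Col1a1, at −2.49 ± 0.35 and −2.31 ± 0.30. Col3a1 read 10.26, 11.11 and 11.33 in DMSO and 8.95, 8.54 and 7.74 in ICG, so the groups were apart although each spread widely. Col4a1, a basement membrane chain, fell by 0.66. Col11a1, Col14a1 and Col15a1, at 0.08, 0.17 and 0.17, did not pass.

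Of 29 further matrix genes and collagen-modifying enzymes 19 fell and 2 rose. The secreted proteins Cthrc1 and Postn fell, at −3.02 ± 0.32 and −2.34 ± 0.39, as did Sparc at −1.68 and the cross-linking enzyme gene Loxl1 at −1.43. P4ha2, a collagen prolyl hydroxylase, was the higher of the 2 that rose, by 0.58. Of 19 matrix proteases and inhibitors 11 fell, led by the collagenase gene Mmp1a at −2.59 ± 0.15 and the stromelysin gene Mmp10 at −1.93 ± 0.17, and 2 rose, Mmp11 by 0.81 and Mmp13 by 0.54. Itga8, an integrin chain of mesenchymal cells, fell by 3.22 ± 0.23. It was 1 of 7 of 22 integrin and laminin genes that fell (31.8%, beside 13.4% of all genes). With 1 array left out 3 to 6 of those 22 fell.

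Markers of other cell types were read in the same way. Of 14 macrophage markers 11 fell and none rose (median −0.84). The complement gene C1qb read 9.73, 10.89 and 11.09 in DMSO and 8.01, 8.01 and 7.42 in ICG, a change of −2.75 ± 0.34, and the mannose receptor gene Mrc1 fell by 2.34 ± 0.35. The lineage receptor gene Csf1r fell less, by 0.52 ± 0.07. Lyz2 and Cd68, abundant in all macrophages, were at 0.02 ± 0.06 and −0.09 ± 0.06. The fall therefore differed from marker to marker within the list, and the mean over the list was 10.25, 10.77 and 10.81 in DMSO against 9.58, 9.52 and 9.26 in ICG.

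Arg1, arginase, which alternatively activated macrophages make, read 9.00, 9.64 and 9.99 in DMSO and 6.56, 6.26 and 5.54 in ICG, a change of −3.42 ± 0.30. The chemokine gene Ccl12 fell by 3.39 ± 0.29 and the eotaxin gene Ccl11 by 1.81 ± 0.26, as 2 of 6 of 25 chemokine and receptor genes that fell. Of 13 mast cell and basophil markers 6 fell, led by the protease gene Mcpt8 at −2.33 ± 0.24. Among 12 endothelial markers 1 rose (8.33%) and none fell. Lymphocyte markers had 1 of 11 higher and 1 lower (9.09% each), and 2 of 10 pericyte markers fell (20%). The 8 adipocyte markers had 1 higher (12.5%) and 2 lower (25%). Over all genes 9.75% rose and 13.4% fell. Pecam1, a defining endothelial gene, read between 3.85 and 4.26, a dim level.

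**Figure D3:**
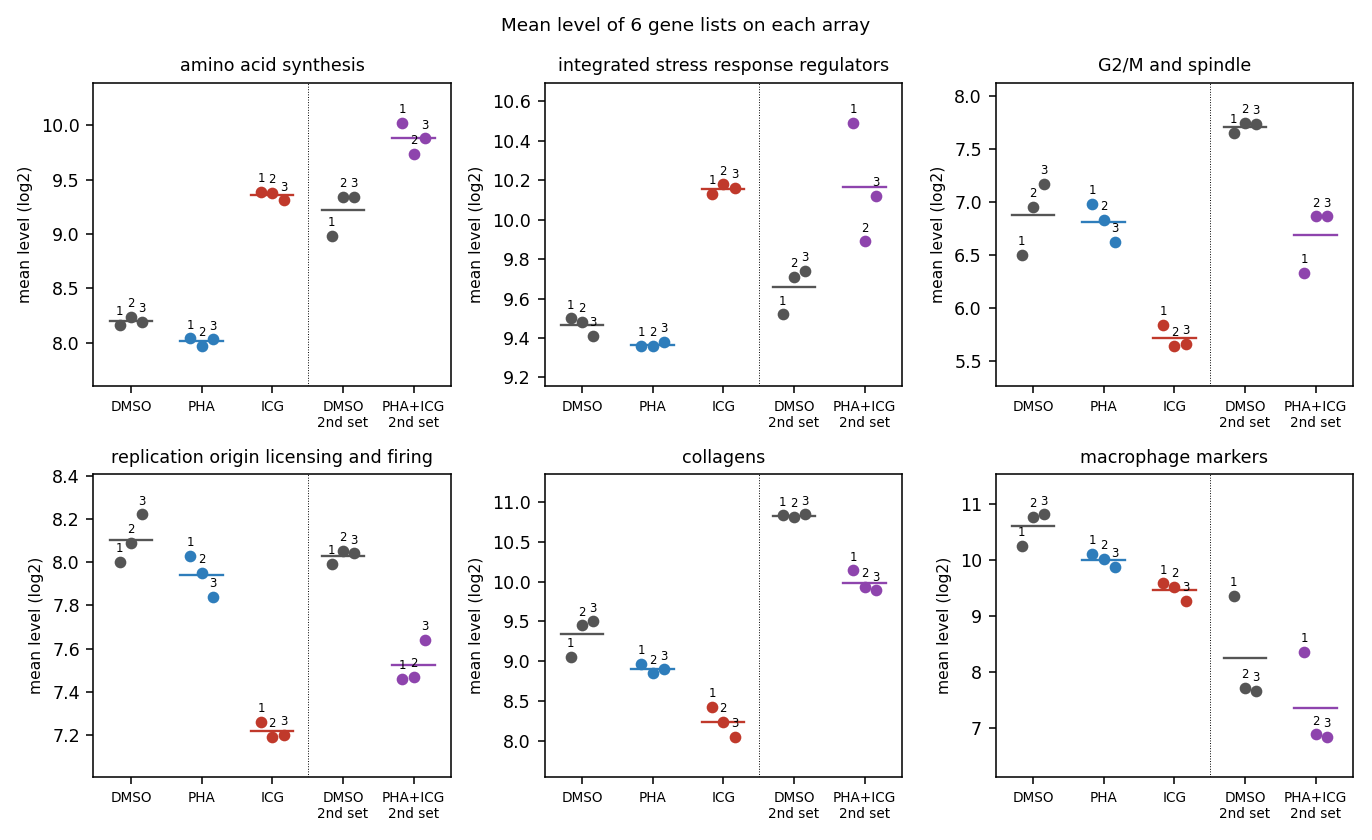
Each panel gives the mean log2 level of a gene list on each array (vertical axis), with points numbered by replicate, bars for group means and a dotted line between the first and second set. Amino acid synthesis and stress response genes are higher, and G2/M, origin, collagen and macrophage genes lower, on all 3 ICG arrays than on any DMSO array of the first set, and DMSO replicate 1 is the lowest DMSO array for the last 4 lists.

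Epithelial lists had medians near 0 with members called in both directions. Of 18 luminal markers 5 rose (27.8%) and 2 fell (11.1%), beside 9.75% and 13.4% of all genes, with a median of 0.05: Epcam, an adhesion protein, fell by 0.40 ± 0.08, while the claudin genes Cldn3 and Cldn4 rose by 0.44 and 0.48 and Cd24a by 0.61 ± 0.12. Of 17 basal and myoepithelial markers 3 rose and 3 fell (17.6% each, median −0.05). Krt5, a basal keratin, fell by 0.38 ± 0.07 and Acta2, smooth muscle actin, by 0.60. With all probe sets of a gene averaged, Epcam and Acta2 were at −0.23 and −0.18 and neither passed. Of 10 milk protein genes 1 changed (10%), the casein gene Csn3, which read 5.39, 5.42 and 5.04 in DMSO and 6.67, 7.38 and 6.52 in ICG. A second probe set of Csn3 stood at 0.08. Of 17 stem and progenitor markers 5 rose (29.4%), Prom1 by 0.63 among them, and 2 fell (11.8%). Of 20 genes of the epithelial-mesenchymal transition 5 rose (25%) and 6 fell (30%). S100a4, Twist2 and Zeb1, which fell most, are also expressed by fibroblasts, and the part of fibroblasts was not tested. Another probe set of Zeb1 stood at 0.03. Both probe sets of the transition genes Cdh2 and Snai2 rose, by 0.36 and 0.50 and by 0.31 and 0.35.

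Lipid synthesis genes fell to a lesser degree. Of 22 genes of cholesterol synthesis and uptake 13 fell and none rose (median −0.30). Among them, Fdps, farnesyl diphosphate synthase, was at −1.21 ± 0.09, Fdft1, squalene synthase, at −1.23 ± 0.08 and Idi1 at −1.08 ± 0.08, while the entry enzyme Hmgcs1 at 0.10 ± 0.07 did not pass. Other probe sets of Fdft1 and Fdps stood at 0.05 and 0.09. Of 15 fatty acid genes 9 fell and none rose, with the desaturase gene Fads2 at −1.53 ± 0.11. Averaged over the 22 genes the level was 8.47, 8.56 and 8.58 in DMSO, 8.11, 8.15 and 8.15 in ICG, and 8.81, 8.82 and 8.67 in PHA.

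Of 18 p53 targets 7 rose (38.9%) and none fell, beside 9.75% and 13.4% of all genes (median 0.24). Among them were Gadd45a at 1.17 ± 0.09, Sesn2, shared with the stress response list, Trp53inp1 at 0.86 ± 0.07, and Bbc3, the cell death gene PUMA, at 0.71. Another probe set of Trp53inp1 stood at 0.13. Of 16 NRF2 targets 6 rose (37.5%) and 2 fell (12.5%). The glutathione transferase gene Gsta4 was the exception in size, at 10.05, 9.97 and 9.78 in DMSO and 7.75, 7.58 and 7.48 in ICG. Of 20 genes of autophagy and lysosomes 2 rose and 2 fell, 10% each and close to the shares over all genes, and the autophagy receptor gene Sqstm1 was 1 that rose, by 1.15 ± 0.09. Of 16 imprinted genes 2 rose (12.5%) and 5 fell (31.2%), and 3 to 5 of the 16 fell with 1 array left out. The neighbouring non-coding RNA genes Rian and Meg3 fell, at −2.17 ± 0.10 and −2.06 ± 0.25. Other probe sets of Rian and Meg3 stood at 0.01 and 0.00.

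Of 25 growth factors, receptors and binding proteins 3 rose (12%) and 8 fell (32%), beside 9.75% and 13.4% of all genes (median −0.03). Among the binding proteins of insulin-like growth factors, Igfbp5 fell by 1.34 ± 0.22 and Igfbp7 by 1.06 ± 0.14, while Igfbp3 rose by 1.06 ± 0.10. Other probe sets of Igfbp5 and Igfbp7 stood at 0.09 and 0.24. Kitl, the ligand of the KIT receptor, rose by 0.59 ± 0.09. Of 20 genes of the TGF-β and BMP pathways 2 rose (10%) and 7 fell (35%), with a median of −0.07. Smad3, which carries the TGF-β signal, rose by 0.83 ± 0.07, and Bambi, a decoy receptor, fell by 0.99 ± 0.12. Only 1 of the 3 probe sets of Smad3 rose, and another stood at −0.03. With 1 array left out 4 to 7 of these 20 fell.

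The remaining lists are given by their counts, beside 9.75% higher and 13.4% lower over all genes. Of 19 genes of glycolysis and hypoxia 6 rose (31.6%) and 7 fell (36.8%), of 24 of squamous differentiation 1 rose and 5 fell, and of 12 heat shock genes 5 rose (41.7%) and none fell, led by the small chaperone gene Hspb8 at 0.90 ± 0.07. Only 2 to 4 of the heat shock genes rose with 1 array left out. Of 22 genes of ribosome biogenesis and MYC activity 2 rose and 4 fell, and 0 to 3 rose with 1 array left out. Of 18 interferon-stimulated genes 4 rose and 1 fell, of 16 Notch genes 4 and 2, of 15 clock genes 2 and 1, of 21 BCL2 and caspase genes 2 and 2, of 14 retinoid genes 1 and 3, of 13 S100 genes 1 and 4, and of 9 Schwann cell and neural markers 2 and 2.

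ICG arrays were also set directly against the 3 PHA arrays of the same set, a comparison that shares its ICG arrays with the one above. Limma called 4845 genes (26.6%), 2395 higher (13.2%) and 2450 lower (13.5%). Amino acid synthesis genes were higher with ICG in 11 of 16 cases (median 1.54) and lower in none, and G2/M genes lower in 36 of 45 (median −0.90). Fibroblast markers were higher in 2 and lower in 8 of 16 (median −0.62). Genes that fell against DMSO could differ here: S100a4 was lower than in PHA by a difference of −2.41, whereas Arg1, at −0.24 (adjusted p = 0.559), Postn, at −0.01 (adjusted p = 0.984), and Mmp1a, at 0.33 (adjusted p = 0.105), did not pass between the inhibitors. Axin2 was at −0.14 (adjusted p = 0.151).

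The second set of cultures, which shares no array with the first, holds ICG only together with PHA. There limma, with the replicate number left out of the fit, called 368 genes (2.02%) with PHA+ICG against DMSO, 87 higher (0.478%) and 281 lower (1.54%). The count was 67 without DMSO replicate 2 of that set, 56 without DMSO replicate 3, 189 without PHA+ICG replicate 2 and 89 without PHA+ICG replicate 3. Same-numbered arrays of that set deviated alike, although replicates 2 and 3 were hardly told from each other, and with the replicate number as a block 349 rose (1.92%) and 1093 fell (6.01%). Of the 69 genes that rose at least 2-fold with ICG in the first set, 64 (92.8%) were above 0 in the second, with a median of 0.90, against 50.3% and 0.00 over all genes. Of these, 23 were called higher there, or 42 with the block. Of the 303 that fell, 293 (96.7%) were below 0, with a median of −1.06, and 91 were called lower, or 213 with the block, which also called 2 of them higher.

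Single genes differed in how far they carried over. Trib3 was at 2.49 in the second set and Car6, a secreted carbonic anhydrase that rose by 3.17 ± 0.19 with ICG, at 3.64. Phgdh, which had risen by 1.90, was at 0.18 there. Its DMSO arrays of the second set already read 10.70, 11.24 and 11.16, against 8.83, 8.94 and 8.98 in the first. Its ICG arrays of the first set read 10.98, 10.69 and 10.77. Top2a, S100a4 and Birc5 were at −2.10, −2.51 and −1.93. G2/M genes had a median of −1.05 with 19 of 45 lower (32 with the block), and cholesterol genes −0.93 with 10 of 22 lower (17 with the block). Il11, a cytokine gene at 11.74, 11.74 and 11.26 in DMSO and 9.14, 8.31 and 8.45 in ICG of the first set, was at −0.68 there. In the second set it read only 6.05, 7.16 and 6.99 in DMSO and 5.96, 6.16 and 6.02 in PHA+ICG. These levels are near the 5.32 of dim probe sets and leave little room for a fall. Because that set has no ICG-only arrays, the part of PHA in these values cannot be told apart.

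**Figure D4:**
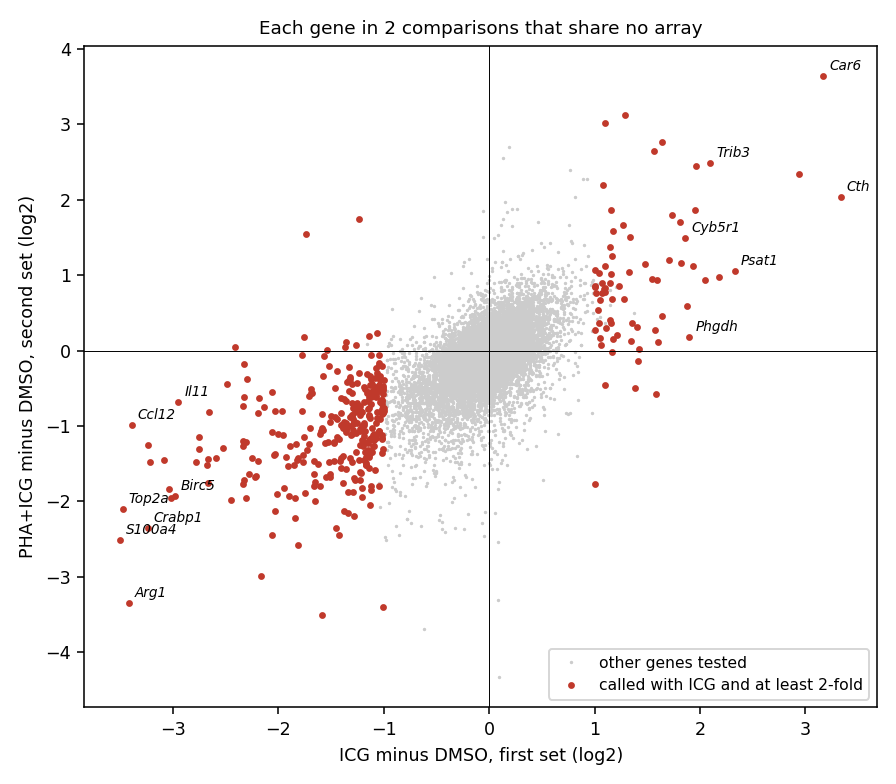
Each point is a gene, with its ICG minus DMSO difference in the first set on the horizontal axis and its PHA+ICG minus DMSO difference in the second set on the vertical axis (both log2). Red points are the 69 genes that rose and the 303 that fell at least 2-fold with ICG; most lie on the same side of 0 in both sets, with exceptions in either direction.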

How the data were processed

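Messenger RNA of 15 samples was hybridised to Affymetrix arrays for the mouse. The values were used as deposited by the authors, on the log2 scale, for 45101 probe sets; the submitters' processing notes name RMA and MAS5 without versions or roles, and whether both sets were normalized together is not given in the sources used here. After 64 controls were left out, 34945 probe sets had 1 gene symbol in the platform's annotation, 932 had several and 9160 had none; the last 2 kinds were not used. The probe set with the highest mean stood for each of 18193 genes, of which 9010 had more than 1.

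Linear models were fitted within the arrays compared with limma 3.58.1 in R 4.3.3 (4 residual and 4.04 prior degrees of freedom for ICG against DMSO), with Benjamini-Hochberg adjustment over all genes and a threshold of 0.05. On simulated data drawn with the spread seen here, the fit was tested and recovered 41.2% of genes changed by 0.5, 92.1% of those changed by 1 and 99.4% of those changed by 2. Members of 54 gene lists (1007 of 1066 entries measured, 17 through a synonym) are described by counts and medians. The members and lists were chosen with earlier results of these data known. Named genes were the 15 highest and 15 lowest called genes without overlap, up to 8 values from any list, and Ctnnb1, Axin2, Ccnd1, Birc5, S100a4, Myc and Met; the text gives a selection. Promoter windows were read from RefSeq, and Python 3.11.15 with pandas 2.3.3, numpy 2.4.6 and matplotlib 3.10.9 prepared tables and figures.

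Replicate numbers were checked for pairing by correlating deviations from the group means. Same-numbered ICG and DMSO arrays of the first set correlated at −0.10, 0.12 and −0.21 and were not taken as pairs. In the second set the values were 0.61, 0.36 and 0.28, although no label states what equal numbers have in common. Differently numbered arrays 2 and 3 correlated at 0.35 and 0.24, so the values set replicate 1 apart but hardly separate 2 from 3. The main fit of that set left the replicate number out, and counts with it as a block are given beside. Scaling, a filter on dim genes, averaging of probe sets, an intensity trend, a replicate block, pooled fits and leaving out each array were tried as alternatives.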

Additional observations from a re-analysis of the deposited data

How the results depend on the processing

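The number of arrays, 3 in each group, and the dim level of many probe sets limit the precision. For ICG against DMSO in the first set, 4218 genes were called, and 4467 with quantile normalization, 4692 with median centring, 4253 among genes above the median level, 3675 with probe sets averaged, 4850 with an intensity trend and 4896 with all 9 arrays of the set. With 1 array left out the count was 2853 to 3934, and 2381 of the 4218 were called the same way in all 6 of these fits. A fit of all 15 arrays called 1255, of which 1254 were among the 4218; the second set's larger spread enters that fit, with a median residual SD of 0.236 in its own fit against 0.105. The replicate number as a block gave 3225, although these numbers were not taken as pairs. ICG against PHA gave 4845 calls, 4288 to 5545 under the other settings, 4347 with the block and 3530 to 4173 with 1 array left out. PHA+ICG against DMSO in the second set gave 368 calls, 1442 with the replicate block, and 56 to 389 with 1 array left out. Centring moved the median of all genes from 0.03 to 0.10.

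Genes near 0 turned in sign, and for these the cause was not tested. With probe sets averaged, Axin2 was at 0.01, Crebbp at −0.10 and Cebpb at −0.04. Hspa5 was at 0.01 with quantile normalization and 0.02 with centring, Pdpn at 0.01 with either, and Lyz2 at −0.02 with quantile normalization. With 1 array left out, Eif2ak2 ranged from −0.18 to 0.02, Ccnd1 from −0.18 to 0.01, Cebpb from −0.00 to 0.09 and Lyz2 from −0.01 to 0.05. Of the 9010 genes with several probe sets, 33 had probe sets called in opposite directions. The replicate block changed the call of Ctnnb1 (adjusted p = 0.0513) and Dkk1 (adjusted p = 0.0747) among the named genes.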

Other observations

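Some of the larger changes were not described above, and their genes were picked after the values were seen. Among increases, Pck2, the mitochondrial enzyme that makes phosphoenolpyruvate, rose by 1.42 ± 0.08 (limma adjusted p = 5.93e-05) and Chchd10, a small mitochondrial protein gene, by 1.64 ± 0.09. Chchd10 was at 2.76 in the second set and Pck2 at 0.02. Angptl6, a secreted angiopoietin-like factor, read 6.95, 6.97 and 6.86 in DMSO and 8.55, 8.70 and 8.76 in ICG, and Abcb1a, a drug efflux pump, 6.25, 6.30 and 6.07 against 7.93, 7.86 and 7.73. The groups did not overlap for either gene. The signalling genes Bdnf, Il33 and Sema3c rose by 1.36 ± 0.12, 1.18 ± 0.13 and 1.34 ± 0.11. The RNA genes Gas5 and Snhg1, which host small nucleolar RNAs, rose by 1.00 ± 0.11 and 0.75 ± 0.09, and Txnip and Arrdc4, glucose-responsive arrestin-like genes, by 0.89 ± 0.09 and 0.99 ± 0.10. The ubiquitin ligase gene Fbxo32 rose by 1.38 ± 0.14 and was at −0.49 in the second set.

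Among decreases were a pair of retinoid-related genes, Crabp1 and Rarres2. The list of 14 retinoid genes showed no common shift, with 1 higher, 3 lower, a median of −0.03 and Dhrs3 highest at 0.63. Crabp1, which binds retinoic acid, read 12.79, 13.07 and 12.96 in DMSO and 10.35, 9.30 and 9.45 in ICG, and the chemerin gene Rarres2 fell by 2.67 ± 0.34 (limma adjusted p = 0.00127). Pclaf, which binds the replication clamp, fell by 2.45 ± 0.22, and Dtl, which marks proteins for destruction on that clamp, was at −1.69 ± 0.13. The growth factor gene Igf1 fell by 1.28 ± 0.15 with all 4 probe sets lower, and Casp12, a caspase of the endoplasmic reticulum, was at −1.91 ± 0.18. The guidance and adhesion genes Nrcam and Tenm4 rose by 1.56 ± 0.10 and 1.10 ± 0.17, from levels of 4.79 to 5.92, and were at 2.65 and 3.02 in the second set. Cemip, which acts in hyaluronan breakdown, fell by 2.33 ± 0.16 and was at −0.18 there.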
